A study of Mus musculus with 18 samples.

Results

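The immediate early genes described here were Fos, Fosb, Jun, Junb, Jund, Egr1, Atf3, Ier2, Dusp1 and Nr4a1, 10 genes given by name, of 29195 genes listed in the counts of dataset 2 and 26114 in those of dataset 1. Their UMI counts (UMIs are molecular barcodes that mark single cDNA molecules) were followed across every cell cluster of the mouse stomach in both datasets, with cell types compared inside each pool of animals. All 10 genes passed the filter on low counts in every fit.

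All cells came from the glandular stomach of 10-week-old male wild-type C57BL/6J mice with no treatment, and single cells were sorted into plates of 384 wells and sequenced with Quartz-Seq2, a plate-based method. Dataset 1 held cells from corpus and antrum gastric units, sorted as ToPro3(-) in the labels (the study's methods name PI as the dead-cell stain of this dataset), in the pools tube1 and tube2 with 3 plates each. Dataset 2 held cells from corpus gastric units alone, sorted as Hoechst33342(+),ToPro3(-), in the pools K and T with 6 plates each. In each dataset the 2 pools were biological replicates, each from 3 mice and made by a different operator, so operator and mice cannot be told apart between pools. All tissue was dissociated with enzymes at 37 °C, with pronase first in dataset 1 and collagenase first in dataset 2. Datasets also differed in region, stain and primers, and these cannot be told apart either. No undissociated control was among the samples, so levels in the intact tissue were not measured.

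Immediate early genes are transcribed within minutes of a stimulus, without the need for new protein, when kinases of the MAPK and cAMP pathways act on factors already bound at their promoters. FOS, FOSB, JUN, JUNB and JUND pair to form the AP-1 transcription factor, and EGR1, ATF3 and NR4A1 are transcription factors of the zinc finger, bZIP and orphan nuclear receptor classes. IER2 is a nuclear protein of the early response, and DUSP1 is a phosphatase that switches MAP kinases off. Growth factors raise these genes, and so does the enzymatic dissociation of tissue, which is why a level measured in sorted cells mixes the state in the tissue with the response to preparation. In the corpus, dividing isthmus cells give rise to pit cells, which secrete surface mucus, to neck cells, which secrete gland mucus, and to acid-secreting parietal cells, while pepsinogen-secreting chief cells lie at the gland base.

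Promoter sequence is shown because the 10 genes moved together across cells, as given further on. Windows of 300 bases around the start site (250 before and 50 after it) were taken from RefSeq on GRCm38.p6, where 8 of the 10 genes had one. The core of the cAMP response element, TGACG on either strand, lay in 6 of the 8 windows and in 20.8% of all 32851 promoter windows of that length. The motif was chosen with these sequences in view, and a match is a description of letters, not evidence of binding. The 3 windows below are shown as those of Fos and of the genes with the most TGACG sites, with each site in capitals (TGACG, or CGTCA where it lies on the other strand).
Fos (chr12:85473640-85473939, plus strand): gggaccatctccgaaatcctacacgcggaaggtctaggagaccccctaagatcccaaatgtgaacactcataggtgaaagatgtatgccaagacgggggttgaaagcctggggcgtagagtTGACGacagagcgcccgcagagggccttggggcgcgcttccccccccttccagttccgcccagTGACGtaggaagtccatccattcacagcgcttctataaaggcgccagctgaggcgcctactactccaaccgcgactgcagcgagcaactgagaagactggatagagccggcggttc
Dusp1 (chr17:26508423-26508722, minus strand): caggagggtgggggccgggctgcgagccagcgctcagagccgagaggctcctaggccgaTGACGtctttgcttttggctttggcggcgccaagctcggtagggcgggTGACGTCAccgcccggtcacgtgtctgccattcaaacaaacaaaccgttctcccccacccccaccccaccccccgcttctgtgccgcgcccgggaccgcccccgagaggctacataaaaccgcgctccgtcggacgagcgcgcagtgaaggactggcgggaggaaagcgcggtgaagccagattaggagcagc
Nr4a1 (chr15:101266596-101266895, plus strand): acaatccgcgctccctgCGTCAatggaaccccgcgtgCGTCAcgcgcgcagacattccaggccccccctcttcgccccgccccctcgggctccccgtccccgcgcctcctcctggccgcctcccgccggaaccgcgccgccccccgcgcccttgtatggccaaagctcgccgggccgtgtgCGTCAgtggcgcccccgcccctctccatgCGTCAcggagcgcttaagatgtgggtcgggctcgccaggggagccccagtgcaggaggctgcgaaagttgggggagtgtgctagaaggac
Dusp1 was the only one of the 8 with the full palindrome TGACGTCA, which holds 2 overlapping TGACG sites and occurred in 1.79% of all windows. Fosb, Junb and Atf3 held 1 site each, and the windows of Jun and Jund held none. The serum response element core (CArG box) and the AP-1 site TGACTCA had no match in the 8 windows, against 1.63% and 5.20% of all windows. Sequence more than 250 bases before the start site was not searched, and Egr1 and Ier2 had no window. The missing matches therefore do not show that these genes lack such elements.

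Cluster names were taken from the study's text where it gave them and otherwise from leading genes. Dataset 2 had 3993 cells in 20 clusters, 3826 of them in the 6 corpus epithelial types, with 10540256 to 12850942 UMIs per plate. Dataset 1 had 491 cells in 15 clusters, 308 of them in 7 epithelial types, with 3054370 to 5346035 UMIs per plate, so values from dataset 1 rest on fewer cells and are less precise. Parietal, chief, pit and dividing isthmus clusters carried their own markers. Well barcodes are shared between plates by design and give no count of shared cells.

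Some clusters need a remark before any level is read. Cluster 0 of dataset 2, assigned to neck cells, was led by Ccn1, Fosb, Atf3, Zfp36, Nr4a1, Fos, Vasn, Junb, Dnajb1 and Egr1, so 6 of its 10 leading genes were the genes under study. Cluster 11, grouped with the isthmus, was led by Cym, Chil4, Krt5, Krt14 and Krt15 and not by genes of dividing cells. Cluster 6 of dataset 1, called antrum pre-pit, was led by the goblet cell genes Zg16, Tff3, Muc2, Fcgbp and Clca1. Because clusters were made from all genes of the same cells, values by cluster are given as descriptions.

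In dataset 2 all 10 genes differed across the 6 epithelial types in edgeR's quasi-likelihood F test at an adjusted p under 0.05, as did 90.4% of all 13894 genes tested. Levels below are CPM, UMI counts scaled to library size with TMM factors, for the summed cells of a type in a pool, and SE is that of the log2 difference between a type and the mean of the other 5 types in the same fit. Neck and isthmus cells were higher than the other types for 10 of 10 genes, chief cells for 9, and mature pit and pre-pit cells were lower for 10 of 10. Parietal cells were split between genes. Neck cells held the highest mean for 6 genes and chief cells for Atf3, Egr1, Ier2 and Jun, and the lowest mean was in pre-pit cells for 9 genes and in mature pit cells for Egr1. Of the 6 genes, only Nr4a1 was called between neck cells and the next type. In pool K another type lay above neck cells for Fos, Fosb, Jund and Dusp1. The ratio of highest to lowest type ran from 4.74 for Jund to 36.8 for Atf3.

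**Figure D1:**
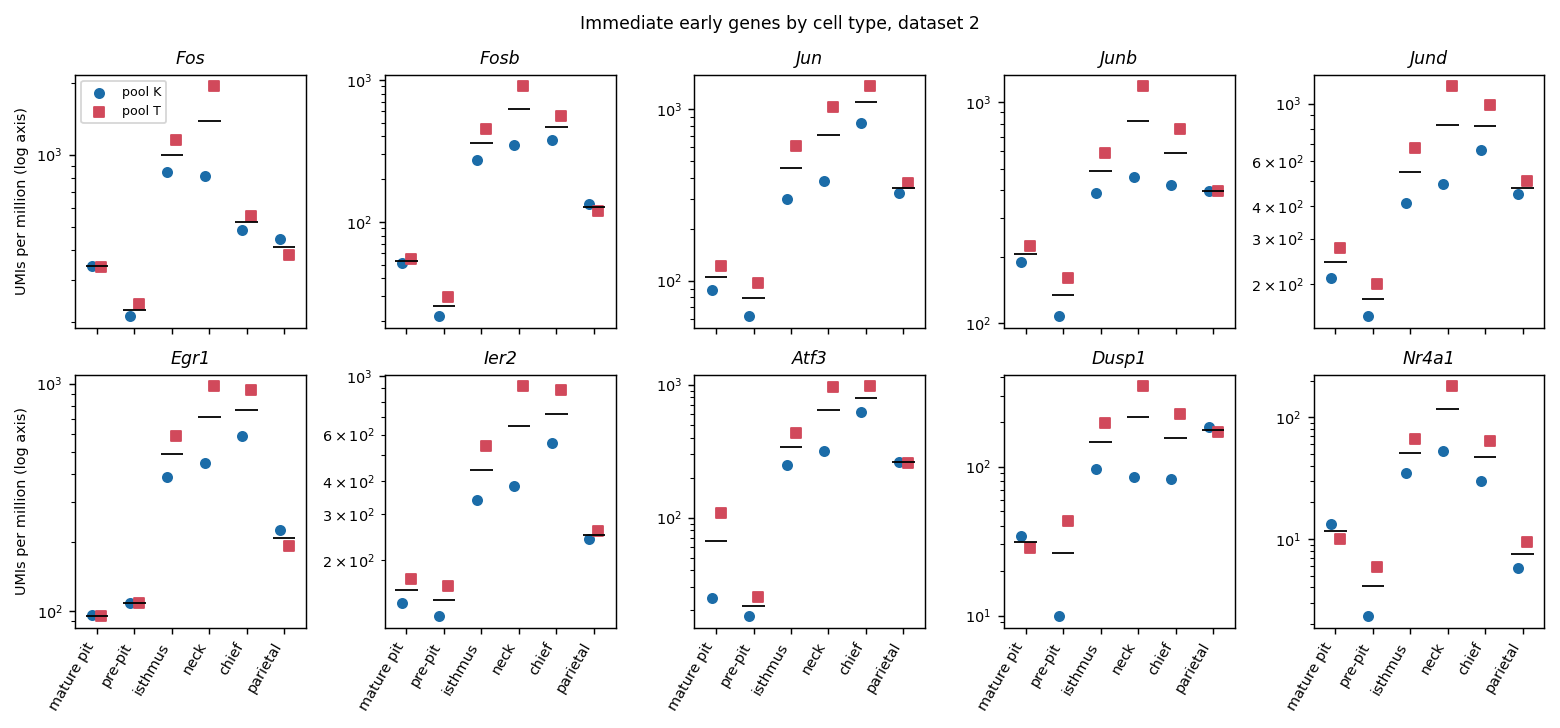
Level of each of the 10 genes in CPM (log axis) by epithelial type, with a point for each pool. The pit types sit at the bottom for nearly every gene, and in neck cells of dataset 2 the pool T point lies above the pool K point for all 10 genes.

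Fos, the dimer partner of the Jun proteins, reached 819 CPM in pool K and 1935 in pool T in neck cells and 848 and 1152 CPM in isthmus cells. In pool K it stood at 486 CPM in chief, 443 in parietal, 344 in mature pit and 212 in pre-pit cells, and in pool T at 557, 382, 340 and 237 CPM. Both pools of neck and isthmus cells lay above both pools of every other type, while the neck and isthmus ranges overlapped. Neck exceeded the other types by 1.59 ± 0.15 (log2, SE, n = 2 pools, adjusted p = 2.4e-07, edgeR) and isthmus by 1.08 ± 0.15 (adjusted p = 1.5e-05), and neck and isthmus were not called apart (log2 isthmus minus neck −0.42 ± 0.21, adjusted p = 0.10, with 58.4% of all genes called). Fos was the only gene not called in chief cells, at −0.03 ± 0.18 (adjusted p = 0.91).

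Fosb, the close relative of Fos, stood at 350 CPM in pool K and 904 in pool T of neck cells, 379 and 555 in chief, 271 and 450 in isthmus and 134 and 120 in parietal cells. Mature pit cells had 51.3 and 55.2 CPM and pre-pit cells 21.7 and 29.4 CPM, so that both pit types lay below all other types in both pools. The difference to the other types was 2.26 ± 0.15 in neck cells and −3.20 ± 0.25 in pre-pit cells (log2, SE, n = 2 pools, adjusted p = 4.9e-09 and 4.8e-08).

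Jun and Atf3 had their highest mean in chief cells. Jun, the main AP-1 partner of Fos, had 830 and 1370 CPM in chief cells of pools K and T, 381 and 1036 in neck, 301 and 610 in isthmus and 325 and 372 in parietal cells. In mature pit cells it had 88.5 and 122 CPM and in pre-pit cells 62.1 and 96.6 CPM. Chief cells were above the other types inside each pool, although neck cells of pool T lay above chief cells of pool K. The chief difference was 2.16 ± 0.13 (log2, SE, n = 2 pools, adjusted p = 1.0e-09, edgeR), and neck cells were 0.72 lower than chief cells with SE 0.19 (adjusted p = 0.005, with 41.5% of all genes called).

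Atf3, a bZIP factor induced by stress, stood at 622 and 974 CPM in chief cells of pools K and T, at 316 and 967 in neck, at 247 and 430 in isthmus and at 264 and 259 in parietal cells. In mature pit cells it had 24.95 CPM in pool K and 108 in pool T, and in pre-pit cells 18.1 and 25.3 CPM. Pit cells were below every other type in both pools, and mature pit cells of pool T lay above those of pool K. Chief cells exceeded the other types by 2.41 ± 0.20 and pre-pit cells were lower by −3.85 ± 0.32 (log2, SE, n = 2 pools, adjusted p = 3.1e-08 and 9.0e-08), while chief and neck cells were not called apart (0.44 ± 0.26, adjusted p = 0.20). Atf3 was also the only gene called between mature pit and pre-pit cells, at 1.59 ± 0.42 (adjusted p = 0.018), a contrast in which 14.2% of all genes were called. Over the alternatives tried, 0 to 7 genes were called in it.

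Egr1, a zinc finger factor induced through serum response elements, had 591 and 937 CPM in chief, 447 and 975 in neck and 389 and 590 in isthmus cells of pools K and T. It had 228 and 192 CPM in parietal, 109 and 108 in pre-pit and 95.7 and 94.7 in mature pit cells. The chief, neck and isthmus values lay above those of the other types in both pools. Ier2, the nuclear early response protein, had the same highest type, at 556 and 887 CPM in chief cells against 381 and 918 in neck and 122 and 159.1 in pre-pit cells. Neck and chief cells were not called apart for either gene (log2 neck minus chief −0.14 ± 0.21 for Egr1 and −0.21 ± 0.18 for Ier2, adjusted p = 0.65 and 0.38).

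Junb and Jund, the other Jun proteins, spanned less between types than Jun did. Junb ran from 108 and 161 CPM in pre-pit cells of pools K and T to 458 and 1185 CPM in neck cells. Jund had 150 and 200 CPM in pre-pit, 489 and 1170 in neck and 659 and 983 in chief cells, so chief cells were the highest type in pool K and neck cells in pool T. Neck and chief cells were not called apart for Jund (log2 neck minus chief −0.05 ± 0.17, adjusted p = 0.84). Parietal cells were not called for either gene against the other types (log2 0.20 ± 0.15 and 0.17 ± 0.13, adjusted p = 0.27 and 0.25). In mature pit cells Junb was lower by −0.99 ± 0.19 and Jund by −1.02 ± 0.15 (log2, SE, n = 2 pools, adjusted p = 0.00041 and 4.2e-05).

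Dusp1 and Nr4a1 moved in opposite ways in parietal cells. Dusp1, the MAP kinase phosphatase, had 183 and 171.3 CPM in parietal cells of pools K and T, 85.3 and 348 in neck, 96.6 and 198 in isthmus, 83.2 and 227 in chief, 34.0 and 28.5 in mature pit and 9.90 and 42.9 in pre-pit cells. In pool K parietal cells were the highest type and in pool T neck cells were. Nr4a1, the orphan nuclear receptor, had 5.75 and 9.37 CPM in parietal cells against 53.0 and 181 in neck, 34.8 and 67.0 in isthmus and 30.1 and 63.5 in chief cells. Parietal Nr4a1 lay in the range of the pit types, which ran from 2.32 to 13.2 CPM. Against the other types, parietal cells had more Dusp1 by 1.32 ± 0.26 and less Nr4a1 by −1.75 ± 0.24 (log2, SE, n = 2 pools, adjusted p = 0.00027 and 5.3e-06, edgeR).

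Of all genes tested, 53.8% were called in either direction for neck, 56.6% for isthmus, 51.7% for chief, 41.5% for mature pit, 39.7% for pre-pit and 70.4% for parietal cells against the other types. For the direction in question the background was 30.2% higher in neck, 30.9% higher in isthmus, 25.2% higher in chief, 21.1% lower in mature pit and 19.7% lower in pre-pit cells. The median log2 difference of the 10 genes was 1.40 in neck cells against 0.06 over all genes tested, 0.83 against 0.03 in isthmus, 1.37 against −0.06 in chief, −1.58 against −0.09 in mature pit, −1.998 against −0.02 in pre-pit and −0.08 against −0.03 in parietal cells. In parietal cells Dusp1 and Atf3 were called higher and Egr1, Fos, Ier2 and Nr4a1 lower. Over the 15 pairs of types, 116 of 150 tests on the 10 genes were called, against 51.6% of the tests on all genes. Without the pool as a block, 5 genes were called in isthmus and 2 in parietal cells, and with no filter on low counts all 10 were called in parietal cells.

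The direction in neck cells turned with cluster 0. That cluster is led by these same genes, so leaving it out alone removes neck cells with high values while the other types keep theirs. A fall in neck cells was set by this choice. The calls below describe its size and are not a test. When cluster 0 alone was left out of neck cells, an alternative added after the data were seen, all 10 genes went from called higher to called lower against the other types, where 25.8% of all genes were called lower. Fos went to −1.05, Atf3 to −2.13 and Nr4a1 to −1.31 on the log2 scale. Isthmus and chief cells were then higher for all 10 genes (33.2% and 26.4% of all genes higher). Pre-pit cells were lower for 10 (21% of all genes lower) and mature pit cells for 8 (22.5%), without Fos and Nr4a1. Parietal cells were higher for 6 and lower for Nr4a1 alone (38% and 36.9% of all genes), with Fos at 0.10 ± 0.09 (adjusted p = 0.36, edgeR). When cluster 11 was also left out of isthmus and cluster 8 out of parietal cells, all 10 genes were again lower in neck cells, and Fos went from 1.59 to −0.86, Jun from 1.29 to −0.67, Atf3 from 1.88 to −1.87, Dusp1 from 1.26 to −1.64 and Nr4a1 from 2.83 to −1.27 on the log2 scale. The remaining neck cells had 179 and 243 CPM of Fos in pools K and T and 25.7 and 48.4 CPM of Atf3. In the same alternative 52.9% of all genes were called in either direction for neck, 62.4% for isthmus and 54% for chief cells. Isthmus and chief cells were higher for all 10 genes, Fos in chief cells included.

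Levels also differed between clusters of 1 type. In the neck, cluster 0 had 3527 and 3745 CPM of Fos in pools K and T on the scale of the cluster fit, and clusters 2, 7 and 12 had at most 391 CPM. Among isthmus clusters, cluster 11 had 2926 and 2364 CPM of Fos and the clusters of dividing cells 3, 5, 6 and 9 had 602 to 1477 CPM. Mki67 and Stmn1, genes of dividing cells, were lower in cluster 11 than in those clusters. In the parietal cells, cluster 8 had 998 and 618 CPM of Fos and cluster 1 had 271 and 320 CPM.

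Cluster 8 was higher than cluster 1 for 9 of 10 genes, with Fos at 1.48 ± 0.20, Dusp1 at 1.22 ± 0.26 and Atf3 at 1.57 ± 0.30 (log2, SE, n = 2 pools), and 23.7% of all genes passed the same threshold. Nr4a1 was the exception, with 6.29 and 11.4 CPM in cluster 8 and 7.33 and 11.1 CPM in cluster 1 and a difference of −0.05 ± 0.43 (adjusted p = 0.99). The share of UMIs from mitochondrial genes moved with the 2 clusters, with medians of 11.99% and 13.9% in cluster 8 and 23.1% and 21.8% in cluster 1. Its part in the result was not tested.

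**Figure D2:**
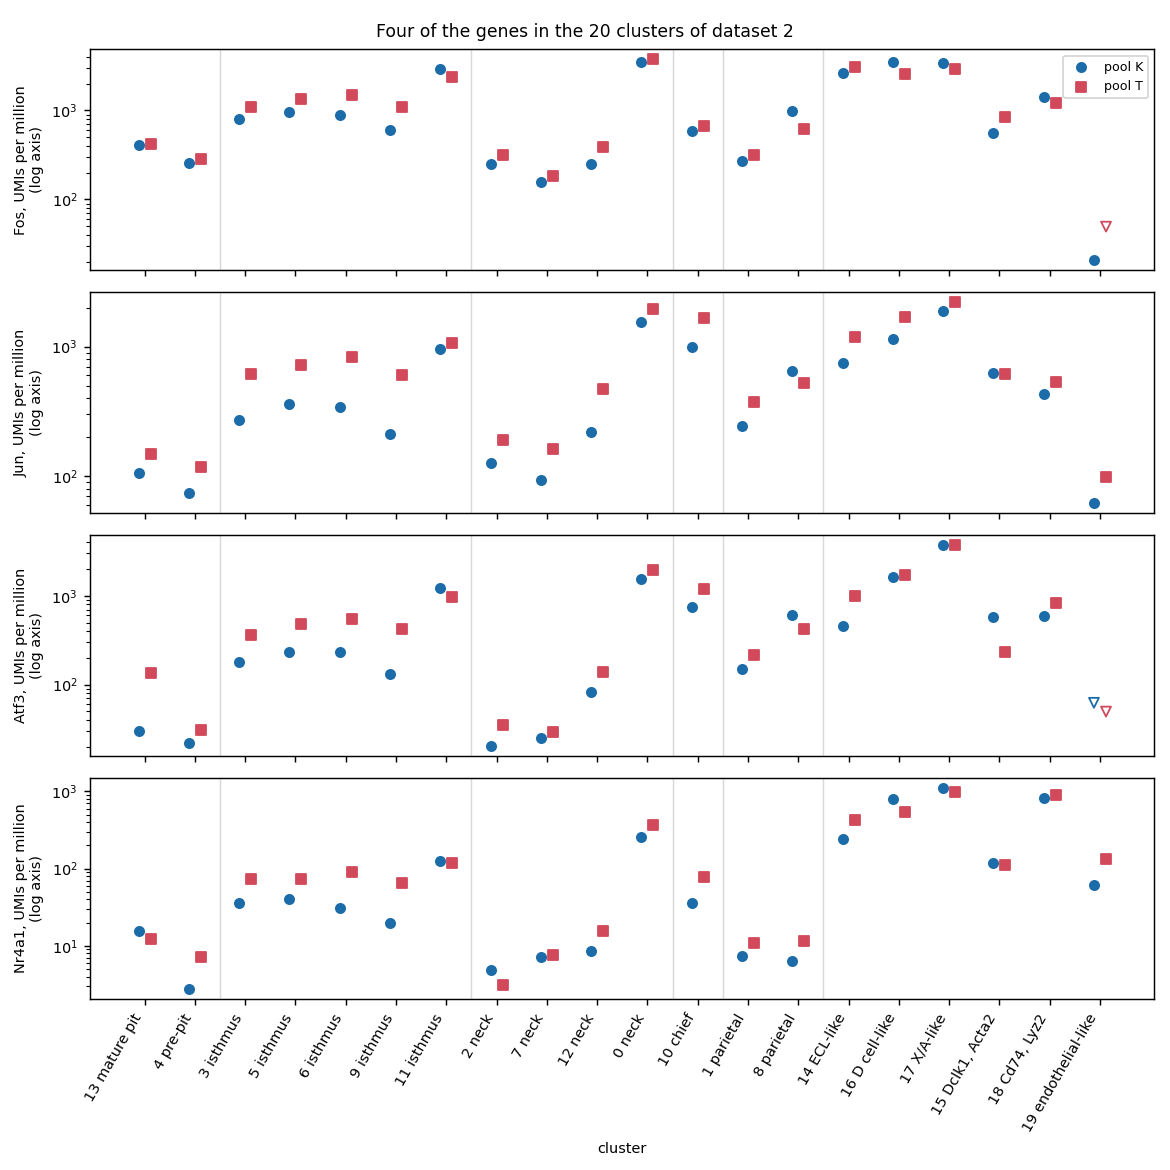
Level in CPM (log axis) by cluster, with a point for each pool and open triangles at 3 UMIs for pools with 0 UMIs. Clusters 0, 11, 14, 16 and 17 of dataset 2 stand above the other clusters for most genes.

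Outside the main epithelial types, the endocrine clusters of dataset 2 were high. Cluster 14 (ECL-like, the histamine cells, by Hdc, Slc18a2 and Chga), cluster 16 (D cell-like, the somatostatin cells, by Sst and Hhex) and cluster 17 (X/A-like, the ghrelin cells, by Ghrl) were above the mean of the epithelial clusters for 10 of 10 genes each, where 47.1%, 37.4% and 40% of all genes passed. Nr4a1 had 240 and 422 CPM in cluster 14, 794 and 540 in cluster 16 and 1108 and 981 in cluster 17, while the highest value of an epithelial cluster was 363 CPM, in cluster 0 of pool T. Atf3 had 3729 and 3702 CPM in cluster 17, which differed from the epithelial mean by 4.19 ± 0.19 on the log2 scale (SE, n = 2 pools). These clusters held 53, 31 and 29 cells. RLE size factors raised the median log2 difference of all genes by 0.20 for cluster 14, 0.33 for cluster 16 and 0.26 for cluster 17. The counts of these clusters stayed at 10.

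Cluster 18, led by Cd74, Apoe, Lyz2 and C1qa and left unnamed, had its own pattern. Junb stood at 2530 and 3961 CPM, Dusp1 at 1160 and 979 CPM and Nr4a1 at 820 and 907 CPM in pools K and T, while Egr1 had 70.3 and 230 CPM. Junb, Dusp1 and Nr4a1 lay above their highest epithelial values in both pools. In all, 6 genes were called higher and 21.2% of all genes were called. Cluster 18 had 13 cells with a median of 9581 UMIs, against 31020 over all cells.

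Cluster 15, with markers of tuft cells and of stroma mixed (Lrmp, Dclk1 and Trpm5 beside Acta2 and Col3a1), was higher for 9 genes (28.7% of all genes called) and not for Fos, which had 561 and 855 CPM. Without the pool block, 5 genes were called there. Cluster 19, endothelial-like by Kdr and Plvap, went the other way. Fos had 20.7 CPM in pool K and 0 UMIs in pool T, and Atf3 had 0 UMIs in both pools, where 3 UMIs would give 62.2 and 49.5 CPM. Of the 10 genes, Fos, Ier2, Jun, Junb and Jund were called lower (17.6% of all genes called), on only 9 cells. The median of all genes in this contrast was itself lower by −1.46 on the log2 scale, and with RLE size factors 2 genes were called.

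Single cells of one type differed widely. The UMIs of the 10 genes were added in each cell and divided by its total, without the TMM factors used for CPM. The median neck cell had 6.95 such UMIs per 10000 in pool K but 84.4 in pool T, while the top decile began at 155 and 261. In isthmus cells the medians were 15.9 and 58.5 and in chief cells 5.49 and 19.7. The top decile began at 126 and 151 in isthmus cells and at 124 and 137 in chief cells. Whether cells of a type fall into separate groups was not tested. Pre-pit cells had medians of 5.22 and 5.17 and mature pit cells of 5.70 and 6.36, with little in a high tail.

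Above 40 per 10000 UMIs lay 25% of neck cells in pool K (161 of 644, Wilson 95% interval 21.8 to 28.5) and 59.7% in pool T (360 of 603, 55.7 to 63.5). The shares were 34.0% and 59.1% in isthmus, 21.9% and 37.4% in chief, 20.8% and 16.9% in parietal, 7.55% and 7.35% in mature pit and 2.24% and 7.01% in pre-pit cells. With the line at 40, isthmus cells had a higher share than neck cells in pool K. In pool T their shares were close, with an isthmus interval of 55.4 to 62.6. The order of the other types was the same in both pools. With it at 20, parietal cells of pool K were at 33.75%, above neck (32.3%) and chief cells (30.1%), and parietal cells of pool T at 43.4%, below chief cells (49.5%). With it at 80, neck cells were at 17.9% and 51.2%, isthmus at 22.0% and 38.7%, chief at 15.1% and 25.2%, parietal at 6.5% and 4.30%, and mature pit cells at 1.89% and 4.41%, while 0 of 134 and 0 of 157 pre-pit cells lay above it (upper Wilson bounds 2.79% and 2.39%). Both lines were added after the data were seen. Within 2-fold of the line lay 93 and 94 neck cells and 109 and 118 parietal cells, so the parietal share depends more on where the line is drawn. These intervals cover counting error only, and the line is a range on a scale and not a cell state.

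**Figure D3:**
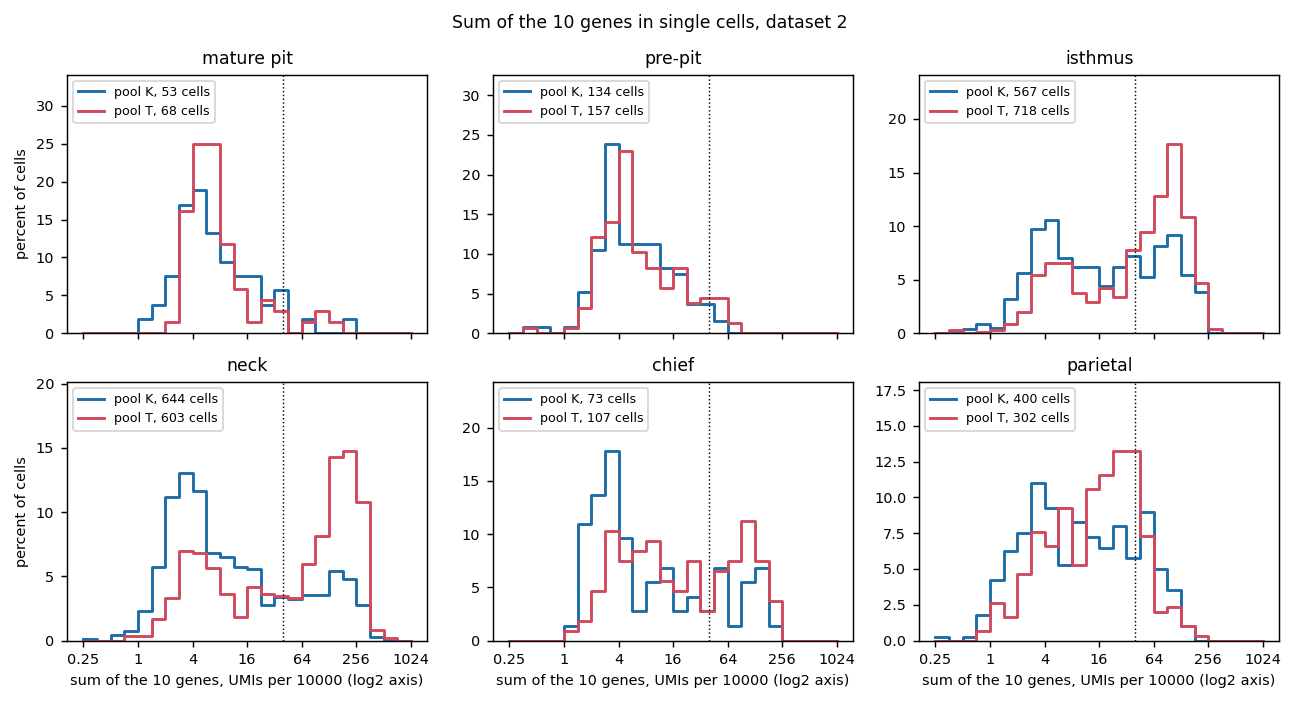
Distribution over cells of the summed UMIs of the 10 genes per 10000 UMIs (log axis) for each epithelial type of dataset 2, by pool, with a dotted line at 40. Neck, isthmus and chief cells spread from low to high sums, and pit cells lie mostly at low sums.

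Thinned to 10000 UMIs per cell, Atf3 had a UMI in 31.5% and 63.8% of neck cells in pools K and T, 38.4% and 50.5% of chief cells and 5.97% and 11.46% of pre-pit cells. Nr4a1 had one in 18.6% and 44.1% of neck cells and in 2.3% and 4.0% of parietal cells. Without thinning the shares were 24.8% and 53.2% in neck and 10.2% and 17.2% in parietal cells, at median depths of 22200.5 and 22887 UMIs in neck and 46156 and 49859 in parietal cells. Parietal cells thus had the lower share at the greater depth. No cell type is known to lack these genes, so a background share could not be set.

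Within a type, cells high in one gene were high in the others. Over the 45 pairs of genes, across cells thinned to 10000 UMIs, the median Pearson r of log values was 0.784 and 0.834 in neck cells of pools K and T, 0.742 and 0.742 in isthmus, 0.750 and 0.641 in chief, 0.606 and 0.519 in parietal, 0.480 and 0.557 in mature pit and 0.238 and 0.339 in pre-pit cells. These are descriptions over 50 to 716 cells that share a library, and r is bounded by how few UMIs a gene has in a type.

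Pool T was above pool K in neck cells for 10 of 10 genes, with a median log2 difference of 1.37 and a range of 1.13 to 2.03. The median was 0.72 in isthmus, 0.67 in chief, 0.46 in pre-pit, 0.18 in mature pit and −0.01 in parietal cells. Clusters of 1 type did not all share these differences. In parietal cells the median was 0.37 in cluster 1, with 10 of 10 genes higher in pool T, and −0.49 in cluster 8, with 1 of 10 higher. In isthmus cells it ran from 0.70 to 1.20 in clusters 3, 5, 6 and 9 and was −0.21 in cluster 11. The makeup of the neck differed between pools, since 21.0% of neck cells of pool K and 55.7% of pool T were in cluster 0, and within cluster 0 the median difference was 0.26. Because cluster 0 is led by these genes, its share is a second reading of the same counts. Each pool is 1 sample, so the pool difference has no test. By plate, Atf3 in neck cells ran from 255 to 567 CPM over the 6 plates of pool K and from 839 to 1358 CPM over those of pool T, and the plates did not overlap.

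Dataset 1 gave a second measurement in other mice. All 10 genes differed across its 7 epithelial types, where 77.7% of 10229 genes did, and neck cells were the highest type for 10 of 10. These 7 types hold no chief cells, which are described further on as cluster 10. Single neck cells differed widely here too. The median neck cell had 14.0 and 18.4 UMIs of the 10 genes per 10000 in tube1 and tube2. The lower quartiles were 3.45 and 4.94, and 8 of 20 and 10 of 25 neck cells lay above 40. In dataset 2 the neck difference reversed once cluster 0 was left out. Neck cells of dataset 1 were not split in this way, so whether their level rests on a group of high cells was not tested. Fos had 1336 and 1385 CPM in neck cells of tube1 and tube2, 520 and 765 in isthmus-like, 442 and 362 in parietal, 467 and 295 in antrum mature pit, 259 and 123 in antrum pre-pit, 172 and 134 in corpus mature pit and 128 and 71.7 in corpus pre-pit cells. Neck cells lay above every other type in both pools, and both corpus pit types lay below neck, isthmus-like and parietal cells. Nr4a1 had 124 and 142 CPM in neck cells, 18.9 and 41.1 in isthmus-like cells, 4.82 and 3.76 in parietal cells and 0 UMIs in both pools of corpus mature pit cells, where 3 UMIs would give 3.86 and 4.23 CPM.

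Against the other types of dataset 1, neck cells were higher for 10 genes (40.9% of all genes called), with Fos at 2.41 ± 0.15 and Nr4a1 at 6.37 ± 0.27 (log2, SE, n = 2 pools, adjusted p = 2.8e-10 and 1.8e-12, edgeR). The Nr4a1 value depends on pit types with almost no UMIs and is no bound. Isthmus-like cells were higher for 8 genes (41.3%), the exceptions being Junb and Jund. Parietal cells were higher for Jun, Junb, Jund, Atf3 and Dusp1 (58.8%), the last by 2.51 ± 0.32 (adjusted p = 9.9e-07). Nr4a1 was not called in parietal cells of dataset 1 (0.47 ± 0.45, adjusted p = 0.40). With DESeq2, 5 genes were called in isthmus-like and 2 in parietal cells.

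Pit cells of dataset 1 were lower for 7 genes in corpus mature pit (26.6% of all genes called), 7 in corpus pre-pit (11.6%), 4 in antrum mature pit (38.4%) and 5 in antrum pre-pit cells (12.5%). These counts moved with single plates. Without plate 25, corpus pre-pit fell to 3, antrum mature pit to 1 and antrum pre-pit to 0, without plate 24, corpus mature pit went to 4, antrum mature pit to 2 and antrum pre-pit to 8, and without plate 29, corpus pre-pit went to 3 and antrum pre-pit to 3. Antrum pre-pit went to 3 without plate 23 and to 2 without plate 30, and parietal cells to 3 without either of these. Between regions, antrum pit cells had more Fos than corpus pit cells by 1.12 ± 0.19 (adjusted p = 0.00057, edgeR), the only gene of the 10 called where 9.64% of all genes were.

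Other clusters of dataset 1 were also set against its epithelial types. The chief cell cluster 10 (by Chia1 and Cblif) had 1557 and 1224 CPM of Jun and 1327 and 853 CPM of Atf3 in tube1 and tube2 but 705 and 483 CPM of Fos, and it was above the epithelial types for 10 genes (26.6% of all genes called). The endocrine cluster 9 (Chga, Ghrl, Sst and Gast) was higher for 10 genes (38.1%), with Nr4a1 at 452 and 265 CPM. Cluster 16, led by Apoe, Cd74 and Lyz2, was higher for 9 genes (25%), with Dusp1 at 1476 and 1218 CPM and Ier2 as the exception, at 287 and 195 CPM. Cluster 12, led by Mgp, Fn1 and Col1a1, was lower for 4 genes (33.3%), with 0 UMIs of Atf3 in both pools on 15 cells.

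The clusters 14, 5-7, 11 and 13 of dataset 1 were mixed. Cluster 14, led by Gzma, Mcpt1 and Trpm5, was higher for 9 genes (19.8% of all genes called), and cluster 5-7, led by the duodenal genes Apoa4 and Fabp1, for 6 (44.8%). Cluster 11, led by Tagln and Acta2, was higher for 5 and lower for 1 (34%), and cluster 13, endothelial-like by Kdr and Plvap with Fabp4 and hemoglobin genes leading, was higher for 5 and lower for 2 (30.1%). In cluster 13 Dusp1, Egr1, Ier2, Jun and Nr4a1 were the higher genes, with Nr4a1 at 94.1 and 212 CPM in tube1 and tube2, and Junb and Jund the lower, on 15 cells. In the endothelial-like cluster 19 of dataset 2, Ier2 and Jun were called lower, and the difference between the clusters was not tested. Hemoglobin genes mark blood, and the part of blood cells in the values of cluster 13 was not tested.

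Between the datasets, inside one type, Egr1, Fos and Ier2 were higher in dataset 2 in mature pit cells (16.9% of all genes called), Egr1 and Fos in pre-pit cells (11.9%) and Egr1 in parietal cells (9.26%). The Fos difference was 1.15 ± 0.31 in mature pit and 1.10 ± 0.31 in pre-pit cells (log2, SE, n = 2 pools, adjusted p = 0.016 and 0.023, edgeR). In neck cells none was called by edgeR (10.3% of all genes called), 1 had an unadjusted p under 0.05, and 8 were called with no filter on low counts. The difference between types in the dataset difference was tested over 40 gene and type pairs in edgeR, and none was called. Of all genes, 4.09% (mature pit), 0.466% (pre-pit), 3% (neck) and 2.33% (parietal) were called. The fit had no pool term, so the pairing of types within a pool was not used. With 5 of the 40 at an unadjusted p under 0.05, the result shows neither that the types responded alike nor that they differed. With 1 pool left out, the counts ran from 0 to 6 in mature pit, 0 to 4 in pre-pit, 0 to 4 in neck and 0 to 1 in parietal cells.

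Other early response genes were followed as lists. Of 20 other immediate early transcription factors 19 were tested and 19 differed across the types of dataset 2, and of 30 other early response and feedback genes 28 of 29 tested did, against 90.4% of all genes. Over all genes, 30.2% were called higher and 23.7% lower in neck, 30.9% and 25.7% in isthmus, 20.1% and 19.7% in pre-pit, 20.4% and 21.1% in mature pit, 25.2% and 26.5% in chief and 36.4% and 34% in parietal cells. Neck cells were higher for 15 factors and lower for 1, and higher for 19 feedback genes and lower for 3. Isthmus cells were higher for 15 and lower for 0 of the factors, and higher for 13 and lower for 4 of the feedback genes. Pre-pit cells were higher for 5 and lower for 9 of the factors and higher for 2 and lower for 20 of the feedback genes, with medians of −0.67 and −1.15 on the log2 scale against −0.02 over all genes tested. The medians were 0.96 and 0.70 in neck against 0.06 over all genes, and 0.93 and 0.28 in isthmus against 0.03. In the other types the factors were higher and lower for 5 and 5 in mature pit, 5 and 4 in chief and 3 and 12 in parietal cells, and the feedback genes for 3 and 15, 14 and 6, and 13 and 8. For the factors in mature pit and chief cells these counts are near the shares over all genes.

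Not every factor followed the 10 genes. Klf4, a zinc finger factor of surface epithelium, was highest in the pit types, at 814 ± 38.0 CPM in mature pit, 627 ± 48.8 in pre-pit, 362 ± 11.6 in isthmus, 105 ± 24.1 in neck, 34.6 ± 5.49 in chief and 27.2 ± 3.39 in parietal cells (mean ± SD, n = 2 pools). Dusp6, a phosphatase that acts on ERK, was highest in parietal cells at 229.6 ± 7.37 CPM and at most 29.2 ± 5.71 CPM elsewhere, and Dusp4 was at 14.1 ± 2.07 CPM in parietal cells and at most 3.79 ± 2.05 CPM elsewhere. Ccn1, a matrix protein of the early response, was at 479 ± 396 CPM in neck, 203 ± 142 in chief, 190.0 ± 108 in isthmus and 19.4 ± 14.2 in parietal cells. Egr2, Egr3, Fosl1 and Ccn2 were low throughout, with no mean above 16.4 CPM.

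Of the kinases and factors upstream of these genes 18 of 18 differed across types, against 90.4% of all genes, and in neck cells 5 were higher and 6 lower, against 30.2% and 23.7% of all genes. Map2k1, the kinase that activates ERK, was highest in parietal cells at 169.7 ± 4.12 CPM. Mapk3, the kinase ERK1, was highest in mature pit cells at 355 ± 28.6 CPM and lowest in chief cells at 91.9 ± 9.91 CPM. Elk3, a partner of the serum response factor, was highest in neck cells at 17.9 ± 1.497 CPM.

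All 11 genes of the heat shock list differed across types, as did 90.4% of all genes. They were higher in isthmus cells for 11 of 11 (30.9% of all genes higher), higher for 4 and lower for 4 in neck cells (30.2% and 23.7%), and lower for 6 and higher for 1 in pre-pit cells (19.7% and 20.1%). Hspa1a was at 963 ± 485 CPM in chief, 723 ± 462 in neck and 543 ± 301 in isthmus cells against at most 173 CPM in the other types, and Dnajb1 at 321 ± 198 CPM in neck, 205 ± 48.7 in chief and 46.8 ± 11.4 in pre-pit cells. These chaperones moved with several of the 10 genes, and their part in the results was not tested.

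Across the 40 cluster and pool sums of dataset 2, the genes most like the mean log2 profile of the 10 included Dnajb1 (r = 0.943), Ppp1r15a (0.924), Btg2 (0.921), Zfp36 (0.915), Trib1 (0.899), Per1 (0.885), Eif1 (0.884), Hsph1 (0.877) and Csrnp1 (0.854), among 15285 genes. The sums share mice, plates and depth, so r is a description. In dataset 1 Zfp36, Ppp1r15a and Btg2 ranked 1, 2 and 4 among 11955 genes, while Eif1 and Hsph1 ranked 973 and 669. Among the 10 genes, Fosb was closest to their mean profile in dataset 2 (r = 0.982), and Nr4a1 (0.781) and Fos (0.795) were the farthest.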

How the data were processed

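Single-cell Quartz-Seq2 libraries of mouse stomach cells, 6 plates in dataset 1 and 12 in dataset 2, were analysed from deposited UMI counts per gene and cell. The submitters' processing notes name bcl2fastq 2.20.0.422 and GRCm39. Per the paper's methods, the authors processed reads with Drop-seq tools and STAR, kept cells above a minimum of detected genes and clustered them with Seurat, and no doublet caller is named. The deposited metadata also hold the authors' percent of mitochondrial UMIs per cell and the cluster of each cell, and those clusters were used as given. Types were named from the study's text, and other clusters from marker lists or their leading genes.

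For each type or cluster, the UMI counts of its cells were added up within each pool. edgeR 4.0.16 was used in R 4.3.3 with TMM scaling, its filter on low counts and the quasi-likelihood test with the pool as a block, and a gene was called at a Benjamini-Hochberg adjusted p under 0.05 over all genes tested. SE is the log2 difference divided by the square root of F. The block was used since one pool's types share their mice. As a check, deviations of types from their means correlated within pools with a median r of 0.132 in dataset 2, where 12 of 15 pairs of types were over 0.1, and 0.0245 in dataset 1, where none of 21 was. Each comparison had n = 2 pools. With the pool as a block, a shift shared by all types of a pool was taken out. The p-values thus rest on how differences between types varied between pools, with the spread moderated across genes. They do not measure the spread of a level between pools. The type fit of dataset 2 had 5 residual degrees of freedom. The comparison between datasets had no block. Shares have Wilson 95% intervals, and 3 UMIs was taken as the floor of a level. Intervals and floors cover counting error only.

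On simulated counts with 200 changed genes (parietal cells against the other types), the test recovered 93% of 2-fold changes in dataset 2 and 91% in dataset 1. The members, lists and tests were chosen with earlier results of these data known. Named were all 10 members, the 4 genes with the widest range across types in each related list, and the 10 genes most like the mean profile; some genes that met these rules are not reported here. Alternatives were no block, RLE size factors, DESeq2 1.42.0, no filter, cells thinned to 10000 or 5000 UMIs, plates as units, members and mitochondrial genes left out of library sizes, leaving out each plate or pool, and, added after the data were seen, leaving out cluster 0 alone or clusters 0, 11 and 8, and cuts of 20 and 80 per 10000. Promoter windows of Egr1 and Ier2 were not analysed here.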

Additional observations from a re-analysis of the deposited data

Results flagged for a closer look

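In pool T of dataset 2, the share of isthmus cells that fell in cluster 11 was 18.6% on 1 plate and 14.0% to 15.0% on the other 5, a gap large for the range of 6 plates. It was 1 of 18 groups of plates checked, and chance flags about 1 in 20 groups. Groups of 3 plates in dataset 1 were not checked.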

How the results depend on the processing

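The counts of called genes out of 10 held within 1.5 times of the main count except as follows. Without the replicate block, dataset 2 gave 5 for isthmus, 2 for parietal, 0 for mature pit against pre-pit, 5 for cluster 15 and 2 for cluster 19. With RLE size factors it gave 2 for mature pit against pre-pit and 2 for cluster 19, and the dataset difference in parietal cells gave 0. DESeq2 gave 2 for mature pit against pre-pit in dataset 2, and in dataset 1 gave 2 for antrum mature pit, 3 for antrum pre-pit, 5 for isthmus-like, 2 for parietal and 1 for antrum mature pit against pre-pit. With no filter, parietal gave 10 and mature pit against pre-pit 7 in dataset 2, the same contrast gave 3 in corpus and 5 in antrum of dataset 1, antrum against corpus pit cells gave 3, and each of the 4 dataset differences gave 8. Cells thinned to 10000 UMIs gave 2 for mature pit against pre-pit in dataset 2, and 4 for corpus pre-pit, 3 for antrum pre-pit, 3 for parietal and 0 for corpus mature pit against pre-pit in dataset 1. Plates as units with the pool as a block gave 2 for mature pit against pre-pit in dataset 2, and 4 for corpus mature pit, 1 for antrum pre-pit, 3 for parietal and 0 for both mature pit against pre-pit contrasts in dataset 1.

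With a plate left out, counts ran from 0 to 2 for mature pit against pre-pit in dataset 2 and for corpus in dataset 1, from 1 to 3 for antrum, from 4 to 7 for corpus mature pit, 3 to 8 for corpus pre-pit, 1 to 4 for antrum mature pit, 0 to 8 for antrum pre-pit and 3 to 6 for parietal cells of dataset 1. In dataset 2, leaving out plate T_PID00159 or K_PID00171 gave 0 for mature pit against pre-pit and leaving out T_PID00162, T_PID00163, T_PID00164 or K_PID00169 gave 2. With a pool left out, the dataset differences ran from 0 to 6 in mature pit, 0 to 4 in pre-pit, 0 to 4 in neck and 0 to 1 in parietal cells. Without clusters 0, 11 and 8, mature pit against pre-pit gave 6, and the neck difference reversed for Fos (−0.86), Fosb (−1.12), Jun (−0.67), Junb (−1.22), Jund (−0.69), Egr1 (−0.77), Ier2 (−0.61), Atf3 (−1.87), Dusp1 (−1.64) and Nr4a1 (−1.27). Without cluster 0 alone, mature pit against pre-pit gave 6, the neck difference reversed for Fos (−1.05), Fosb (−1.30), Jun (−0.81), Junb (−1.37), Jund (−0.80), Egr1 (−0.93), Ier2 (−0.76), Atf3 (−2.13), Dusp1 (−1.81) and Nr4a1 (−1.31), and that of Fos in parietal cells reversed (0.10). Thinned to 5000 UMIs, the median share of cells with a UMI was 43.9% against 56.3% and the median r across cells 0.513 against 0.599. The cause of these changes was not tested. Pools number 2 per dataset, and dataset 1 holds few cells per type, which limits what either can show.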
